A study of Arabidopsis thaliana with 4 samples.

Results

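Roots of Arabidopsis seedlings that had been exposed to the fungus Piriformospora indica (P. indica) for 2 d were compared with roots of mock-treated seedlings of the same age, across all genes that gave a readable signal. The comparison rests on 2 Affymetrix ATH1 arrays, 1 of P. indica-exposed and 1 of mock-treated roots, on which several short probes together, called a probe set, measure a gene. A probe set was counted if the brighter of both arrays lay above 22.2, the floor used here, which was derived from the 40th percentiles of all 4 arrays. This left 14118 of the 22746 probe sets on the array that are no controls. Signals are linear MAS5 values in arbitrary units. A dimmer signal was raised to this floor, so a fold difference that involves one can only be a minimum and is marked with "at least".

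Both groups were Columbia wild-type seedlings with an age of 12 d according to their labels, after 48 h in the cold and 10 d of illumination. They lay on a nylon membrane on agar plates, and a plug of 5 mm was placed 3 cm from the nearest root, with fungal mycelium for the exposed group and without it for the mock group. In this arrangement the roots of the 2 d time point had not been reached by hyphae, so the question of the comparison is how roots respond before physical contact. A second pair of arrays, 1 mock and 1 exposed, was made after 6 d and shares no array with the first pair. Its seedlings have a labelled age of 16 d. There is 1 array per condition, so every ratio is given as a size without an error or a p-value, and it includes whatever differs between 2 root preparations besides the fungus.

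P. indica is a root-colonizing fungus of the Sebacinales that lives in roots of many plant species and often promotes their growth. Plant roots perceive fragments and secreted compounds of fungi through receptors at the cell surface. Typical outputs are Ca2+ and kinase signalling, secretion of wall-degrading and wall-strengthening enzymes, peptide signals that spread the response, and antimicrobial metabolites made from tryptophan or phenylalanine. Whole roots hold epidermis, root hairs, cortex, endodermis and stele in one extract.

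The labels were set against marker genes. PYK10, a myrosinase-type beta-glucosidase of root ER bodies, had signals of 3098 on the mock and 3542 on the exposed array, which are among the bright signals of the table. The 5 root markers with a named probe set, of 19 listed, summed to a signal of 3825 on the mock and 4545 on the exposed array. PYK10 made up most of both sums. The other markers are the 4 root hair genes described below, so these sums are no separate reading of them. For the 5 markers of green tissue the sums were 479.6 and 365.1, so the sum was lower on the exposed array. Both arrays had the same scale, with 2% trimmed means of 99.3. The 16 probe sets for spiked-in hybridization controls had a median log2 ratio of 0.07 (range -0.08 to 0.33). The 3′ probe set of the actin control exceeded the 5′ one by 3.00 on the log2 scale in mock-treated and by 2.71 in exposed roots.

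Most genes had similar signals on both arrays. The median log2 ratio was -0.03 with an SD over probe sets of 0.32, and 94.8% of the probe sets lay within 1.5-fold. After exposure, 391 probe sets (2.77%) had signals elevated by more than 1.5-fold, and 338 (2.39%) had signals reduced by more than 1.5-fold. At 2-fold the numbers were 104 higher (0.737%) and 40 lower (0.283%), and at 3-fold 41 higher (0.290%) and 8 lower (0.0567%). Thus the moderate differences were nearly as often lower as higher, whereas the large ones were mostly higher. The split depends on the scaling: of all differences past 1.5-fold, 53.6% were higher on the deposited scale and 64.5% after a loess fit within the pair, which gave 481 higher and 265 lower. In RNA from whole roots, fewer cells of a type and less RNA per cell cannot be told apart. At the limit itself, AT1G68430 (21.9 and 33.3) was just counted as higher and AT3G43590 (76.0 and 50.7) just missed being counted as lower, so single genes near 1.5-fold should be read with their signals.

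The moderate differences were found most often among dim probe sets. With a mean signal below 50, 4.10% of 3929 probe sets lay past 1.5-fold on the higher and 3.97% on the lower side, and the SD of the log2 ratio was 0.35. For mean signals between 300 and 1000 the shares were 2.30% and 1.18% of 1782 probe sets, with an SD of 0.27. Above 1000, 7 of 523 probe sets were higher (1.34%) and 2 were lower (0.382%), with an SD of 0.21. In the dim classes both directions were thus about equally frequent, and among bright probe sets higher signals outnumbered lower ones.

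**Figure D1:**
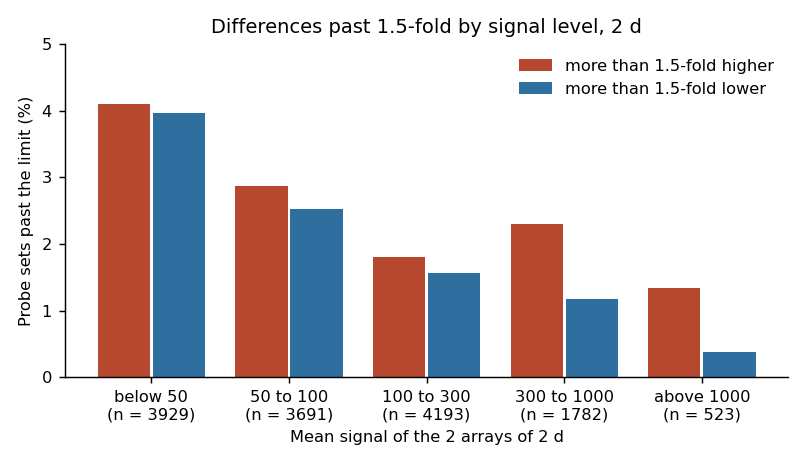
Share of probe sets (%) that were more than 1.5-fold higher or lower in P. indica-exposed than in mock-treated roots after 2 d, by the geometric mean of both signals, with the number of probe sets under each class. Both shares are near 4% below a mean signal of 50, and above a mean signal of 300 the bars of the higher ones exceed those of the lower ones, with 2.30% against 1.18% and 1.34% against 0.382%.

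A gene name could be given to 7624 of the counted probe sets, for 7548 genes. Of these genes 207 (2.74%) were more than 1.5-fold higher and 180 (2.38%) more than 1.5-fold lower, 44.0% had ratios above 0 and 55.6% below 0. These shares are the background for the counts of gene groups. Among the probe sets past 3-fold, 20 of the 41 higher and 5 of the 8 lower ones have no gene name here and are not described further. The genes that follow are arranged by what they code for, and the signals of mock-treated and exposed roots are given in this order.

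Precursor genes of peptide signals were among the larger differences, and several of the largest lay in the wall and oxidase families given below. The 3 precursor genes of PIP peptides, small secreted peptides that amplify immune responses, were all more than 3-fold higher. AT4G37290 had signals of 23.8 and 138 (5.8-fold higher), AT2G23270 of 6.8 and 88.4 (at least 3.98-fold) and AT4G28460 of 11.6 and 75.2 (at least 3.39-fold). In mock-treated roots the signals of these 3 genes lay near or under the floor. The other secreted peptide precursors that were counted, members of the RALF and CLE families, stayed within 1.5-fold. RALFL33 reached 396 and 506.5, and RALFL24 148.5 and 117.

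Among genes of immune regulators single genes were past 1.5-fold, and those described beyond the lists were chosen after their values were seen. Of 6 WRKY genes 1 was higher, of 8 ubiquitin ligase genes of the U-box and RING type 1 was higher (median -0.06), and of 2 genes of early immune signalling none was, against 2.74% of all genes. PUB24, a ubiquitin ligase that dampens immune signalling, had signals of 24.2 and 47.5 (1.96-fold higher), while its close relatives PUB22 and PUB23 had log2 ratios of -0.07 and 0.21. WRKY53, a transcription factor of senescence and defence, was 1.66-fold higher (27.3 and 45.3), and WRKY6 had signals of 141.5 and 194. WRKY20 and WRKY22 both had log2 ratios of -0.18. GRX480, a glutaredoxin that binds TGA transcription factors, was 2.21-fold higher (40.9 and 90.4). AT3G48080, a second copy of EDS1, which relays signals of intracellular immune receptors, had signals of 26.3 and 41.3 (log2 ratio 0.65). AT1G72900 (23.0 and 40.3) and AT1G72940 (34.4 and 52.5), which code for TIR-domain proteins of the resistance protein type, had log2 ratios of 0.81 and 0.61. The signals of the genes past 1.5-fold among these were all below 100. In this range 4.10% (mean signal below 50) and 2.87% (50 to 100) of all probe sets were past the limit on the higher side.

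Genes of receptor-like kinases were not counted as a group, since the lists made for them held no gene here. No share of them can thus be given, and the kinase genes that follow are examples from the higher side. Ca2+ sensor genes were counted. The leucine-rich repeat kinase gene AT1G51890 was 2.03-fold higher (51.9 and 105.5), and its relative AT5G49770 1.95-fold (31.7 and 61.7). Among 6 calmodulin-like and related Ca2+ sensor genes, CML43 was higher (48.3 and 73.2, 1.52-fold), CML30 lower (41.4 and 25.3, 1.64-fold) and CML38 lower (45.5 and 20.6, at least 2.05-fold). CML42 had signals of 153 and 206. These 6 genes therefore did not move in one direction. AT5G39670, which the study names as a Ca2+-binding protein, is not among them and had a log2 ratio of 1.48.

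Several genes of enzymes that act on microbial walls were higher at bright signals. Of 10 chitinase genes counted, which code for enzymes that split fungal chitin, 6 were more than 1.5-fold higher, against 2.74% of all genes, and the median log2 ratio was 0.59 against -0.03 over all genes. AT2G43570 had the largest ratio of them, with signals of 73.1 and 446.6 (6.11-fold higher). AT1G02360 had signals of 380 and 693 (1.83-fold higher), AT4G01700 of 350 and 630 (1.80-fold) and ChiC of 538 and 808. AT2G43600 and AT1G56680 both had log2 ratios of -0.42, with signals of 56.7 and 42.4 and of 180 and 134. The beta-1,3-glucanase gene AT4G16260, whose family splits the other main polymer of fungal walls, rested on the brightest pair of signals among the named genes past 1.5-fold, 1233 and 1906 (1.55-fold higher). The lists of chitinases, PIP precursors and of the oxidases, peroxidases, germin-like genes and extensins that follow were completed after values had been seen, so their counts describe these arrays only.

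Oxidases and peroxidases of the wall followed the same pattern of a few large and several moderate differences. In the berberine bridge enzyme-like family, FAD-linked oxidases of which some oxidize oligosaccharides, 6 of 13 genes counted were more than 1.5-fold higher, again against 2.74%. Beside the 4 neighbouring genes AT1G26380 to AT1G26420, whose mock signals were at or under 15.4, these were AT4G20830 (370.5 and 634, 1.71-fold higher) and AT1G30700 (369 and 623, 1.69-fold), whose signals were bright on both arrays. Of the 4 neighbours, AT1G26390 was at least 19.1-fold (13.5 and 423.9) and AT1G26380 at least 13.4-fold higher (15.4 and 297.9). Of 41 class III peroxidases, secreted enzymes that use H2O2 to cross-link or loosen walls, 7 were more than 1.5-fold higher and 1 was lower, with a median of 0.19, where 2.74% and 2.38% of all genes were, so the lower count is at the background. AT5G39580 stood highest among them, with a log2 ratio of 3.25 after the floor was applied. AT4G11290 had signals of 338 and 513 (1.52-fold higher) and AT2G41480 of 182 and 119 (1.53-fold lower). AT3G49960 reached 373 and 557, 1.49-fold, and thus stayed just short of the limit. Of 4 germin-like genes counted, 2 were more than 1.5-fold higher, against 2.74% of all genes, and 1 lay below 0. AT1G18980 was 2.29-fold higher (268 and 614). AT5G38910 had the highest log2 ratio of all genes counted, 4.62 after the floor was applied.

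Most extensin genes were past 1.5-fold, whereas the genes of the root hair list were not. All 9 extensin genes counted, which code for hydroxyproline-rich proteins that are cross-linked into the wall, had ratios above 0, and 6 of them were past 1.5-fold (2.74% of all genes), with a median log2 ratio of 0.65. AT1G26250 had signals of 119.5 and 243 (2.04-fold higher), AT4G08410 of 61.9 and 123 (1.99-fold), AT5G19800 of 128.5 and 204 (1.59-fold) and HRGP1 of 304 and 468 (1.54-fold). The probe sets of AT1G23720, AT4G08410, AT5G06630 and HRGP1 carry a suffix for possible cross-hybridization, so related extensin transcripts can contribute to them. The 4 root hair genes counted stayed within 1.5-fold but all lay above 0, with a median of 0.47. EXPA7 and EXPA18, expansins of growing root hairs, had signals of 202 and 281 and of 233 and 328.5. GH9C1, a cellulase of root hairs, had 197 and 271. XTH26, a xyloglucan-modifying enzyme of root hairs, was past the limit with 51.7 and 87.5 (1.69-fold higher). One of the 4 root hair genes, AT3G54580, is also in the extensin list. At 6 d the median of the same 4 root hair genes was 0.01, and that of the 9 extensin genes was 0.14.

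Other wall enzymes were mostly within 1.5-fold. The expansins as a whole had a median of 0.21 with 1 of 13 genes past 1.5-fold and 5 below 0, and the xyloglucan-modifying enzymes had a median of 0.19 with 1 of 10 past the limit and 3 below 0. With a floor at the 60th percentile the median of the expansins was -0.03. EXPB3, a beta-expansin, had bright signals of 531 and 790 (1.49-fold higher). The pectin methylesterase gene AT5G04960 was 1.72-fold higher (237 and 407). The genes of tubulins and actins, which build the cytoskeleton and served as a comparison, had a median of -0.02 over 10 genes and none lay past 1.5-fold. TUA6 was the brightest of those with given values, 1574 and 1464.

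**Figure D2:**
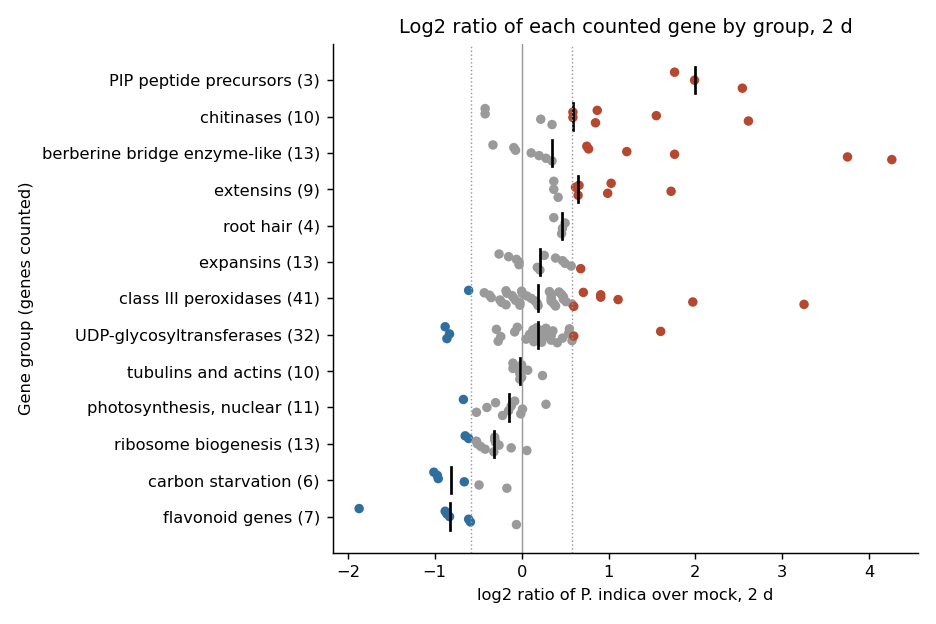
Log2 ratio of P. indica-exposed over mock-treated roots after 2 d for each counted gene of 13 groups, with the number of genes in parentheses. Black bars are medians and dotted lines mark 1.5-fold. Points of PIP precursors and extensins all lie above 0, carbon starvation genes all lie below 0, and tubulins and actins lie close to 0.

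Proteases and protease inhibitors differed gene by gene. In the list of protease inhibitors SERPIN1 and CYS1 were counted, with signals of 361 and 402 and of 917 and 779, and in the list of subtilases SBT4.12 and SBT1.3, with log2 ratios of -0.11 and -0.52. None of these 4 genes was past 1.5-fold. In the list of cysteine proteases and metacaspases only CP1 was counted, and it was 3.85-fold higher (54.1 and 208.3). The genes that follow were named for their size. The gene of a PR-6 type protease inhibitor, AT2G38870, was 2.01-fold higher with bright signals of 729 and 1462. AT2G15220, of the basic secretory protein family, was 5.15-fold higher (224 and 1155), on a probe set with a suffix for possible cross-hybridization. The subtilase gene SBT3.5 was 2.82-fold (52.4 and 148), the aspartyl protease gene AT3G51350 2.40-fold (43.7 and 105) and the matrix metalloproteinase gene MMP 1.72-fold higher (94.7 and 163). Another aspartyl protease gene, AT5G10770, differed in the opposite direction, with 79.3 and 22.1 (at least 3.57-fold lower). Proteins of the PR-1 type also differed in both directions. AT4G25790 had signals of 179 and 310 (1.73-fold higher), AT4G33730 of 92.3 and 153 (1.65-fold higher) and PR-1-LIKE of 130 and 84.7 (1.54-fold lower).

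Several enzymes of defence metabolites were higher. F6'H1 (AT3G13610), which makes the precursor of the coumarin scopoletin from feruloyl-CoA, was 1.91-fold higher with signals of 646 and 1232. The 3 other counted genes of coumarin synthesis and export had ratios above 0, and the median of the 4 was 0.29. For one of them, AT3G12900, with signals of 5.9 and 26.5, the ratio is only a bound. CYP71B6, which converts indole-3-acetonitrile, was 2.38-fold higher (280 and 667). CYP71B23 was 1.51-fold higher (104 and 157). Of 9 cytochrome P450 genes counted, these 2 were past 1.5-fold, against 2.74% of all genes. The median of the 9 was 0.13, 2 lay below 0, and the relative CYP71B26 had a log2 ratio of -0.44. Acyltransferase genes of the HXXXD type were higher too: AT5G42830 had signals of 55.8 and 220 (3.94-fold) and the neighbours AT5G07870 and AT5G07860 of 153.5 and 246 and of 156 and 249. General phenylpropanoid genes showed smaller ratios, with a median of 0.29 over 3 genes and none past 1.5-fold.

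UDP-glycosyltransferases, which attach sugars to such metabolites, differed in both directions. Of 32 genes counted by their UGT symbol, 2 were higher, 3 were lower and 24 had ratios above 0, with a median of 0.19. Over all genes 2.74% were higher, 2.38% lower and 44.0% above 0, so the counts past 1.5-fold rest on few genes. UGT73D1 was 3.04-fold (39.6 and 120) and UGT73B5 1.51-fold higher (137 and 207), and UGT73B4 had signals of 184 and 276. The 3 lower ones act on flavonols and hydroxycinnamates. UGT78D2, a flavonoid 3-O-glucosyltransferase, had signals of 387 and 210.5 (1.84-fold lower), UGT78D1, a flavonol 3-O-rhamnosyltransferase, of 41.8 and 23.0 (1.82-fold lower) and UGT84A1, which glucosylates hydroxycinnamates, of 97.8 and 55.2 (1.77-fold lower). AT2G22590, another UDP-glycosyltransferase gene, had the lowest ratio of the named genes with both signals above the floor, with 138 and 37.8 (3.65-fold lower). CHIL, a chalcone isomerase-like protein that aids flavonoid synthesis, had bright signals of 678 and 444 (1.53-fold lower), and HYH, a bZIP factor related to the light regulator HY5, had 97.8 and 65.1. Of the 7 genes counted in a list of flavonoid genes that also holds UGT84A1, 6 were more than 1.5-fold lower, with a median of -0.83. The exception was AT1G06000, a flavonol 7-O-rhamnosyltransferase gene, with 462 and 444. At 6 d the median of the 7 genes was -0.61. This list was put together after these genes had been seen among the lower ones, so its count cannot be set against the 2.38% of all genes. The list of flavonoid synthesis, which was not made this way, had 2 counted genes, CHIL and UGT78D2, both more than 1.5-fold lower.

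Several genes of carbon shortage and of the clock were lower. Of 6 genes that rise in sugar-starved plants, 4 were more than 1.5-fold lower, and all lay below 0, with a median of -0.81. Of all genes 2.38% were lower and 55.6% below 0. PPDK, pyruvate orthophosphate dikinase, had signals of 54.6 and 27.2 (2.01-fold lower), ICL, isocitrate lyase of the glyoxylate cycle, of 92.9 and 47.3 (1.96-fold), MGL, methionine gamma-lyase, of 101 and 52.1 (1.94-fold) and ALDH3F1, an aldehyde dehydrogenase, of 60.4 and 38.1 (1.59-fold). MCCA and IVD, enzymes of leucine breakdown, had signals of 175 and 124 and of 206 and 183. At 6 d the median of the 6 genes was 0.06, and this list too was made after values had been seen. ICL (22.3 and 19.5) and PPDK (24.7 and 24.8) lay near or under the floor at 6 d, so a lower signal could hardly show for them. The clock gene GI was 1.58-fold lower (137 and 87.0), CCL 2.25-fold lower (77.6 and 34.5), and the third clock-related gene counted, AT4G33980, had 38.2 and 29.9. GI and CCL are genes that cycle over the day, and the study describes continuous light before co-cultivation. The hour of harvest is not given, and its part in these ratios was not tested.

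Photosynthesis genes, which roots on illuminated plates express at low level, were nearly all within 1.5-fold. Of 11 nuclear genes counted, 9 lay below 0 and 1 was more than 1.5-fold lower, with a median of -0.15. PSBW, a subunit of photosystem II, had signals of 115 and 72.5 (1.59-fold lower), LHCB4.1, an antenna protein, of 179 and 125, and RCA, Rubisco activase, of 201 and 152. Of 55 plastid-encoded genes 43 lay below 0, where 55.6% of all genes did, with a median of -0.18. In this group 2 genes were more than 1.5-fold lower and 1 was higher. They were psbM (1108 and 601) and psaI (204 and 130), subunits of the photosystems, and psbB of photosystem II on the higher side (22.5 and 34.0). The 5 green markers summed above belong to the 11 nuclear genes and are no separate reading. The part of green tissue in these ratios was not tested. At 6 d the medians lay on the other side, with 0.44 for the nuclear genes and 0.07 for the 32 plastid-encoded genes counted then.

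Genes of ribosome assembly were mostly within 1.5-fold. Of 13 genes of ribosome biogenesis factors, 12 lay below 0 and 2 were more than 1.5-fold lower, against 55.6% and 2.38% of all genes, with a median of -0.32 against -0.03 over all genes. PCN, a nucleolar WD-repeat protein, had signals of 97.5 and 62.0 (1.57-fold lower) and the RNA helicase gene AT5G60990 of 153 and 100.5 (1.53-fold). At 6 d the median of the 13 genes was -0.26. The RNA-binding protein gene AT5G04600 was among the brightest of the lower genes with 644 and 324 (1.99-fold lower), as was the zinc finger gene AT2G36930 with 647 and 360 (1.80-fold). The list of 13 was made after values had been seen.

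Further lower genes belonged to stress responses or carry no role that is described here. DI21, a drought-induced gene, had signals of 687 and 337 (2.04-fold lower). It was the only one past 1.5-fold of 5 dehydrin and drought genes counted, of which 3 lay above 0, with a median of 0.05. AT1G19530, a gene that is strongly induced by low oxygen, was 3.27-fold lower (287.5 and 88.0), and the pyruvate decarboxylase gene PDC2 of ethanolic fermentation had 314 and 232. Of 5 low-oxygen genes counted, 2 were more than 1.5-fold lower, against 2.38% of all genes, and 1 lay above 0 (median -0.44). AT4G39675 was 2.47-fold lower with 605 and 245, and the lipid transfer-type gene AT4G12500 1.98-fold lower with 326 and 165. AT1G12010, of the ACC oxidase family that forms ethylene, was 1.65-fold lower (341 and 207). LPR1, a ferroxidase of the root tip response to low phosphate, had signals of 92.3 and 61.1. Of these genes AT1G19530 and AT4G39675 lay above mock at 6 d, by 1.42-fold and 1.34-fold, and AT4G12500 was under the floor on both arrays of 6 d.

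**Figure D3:**
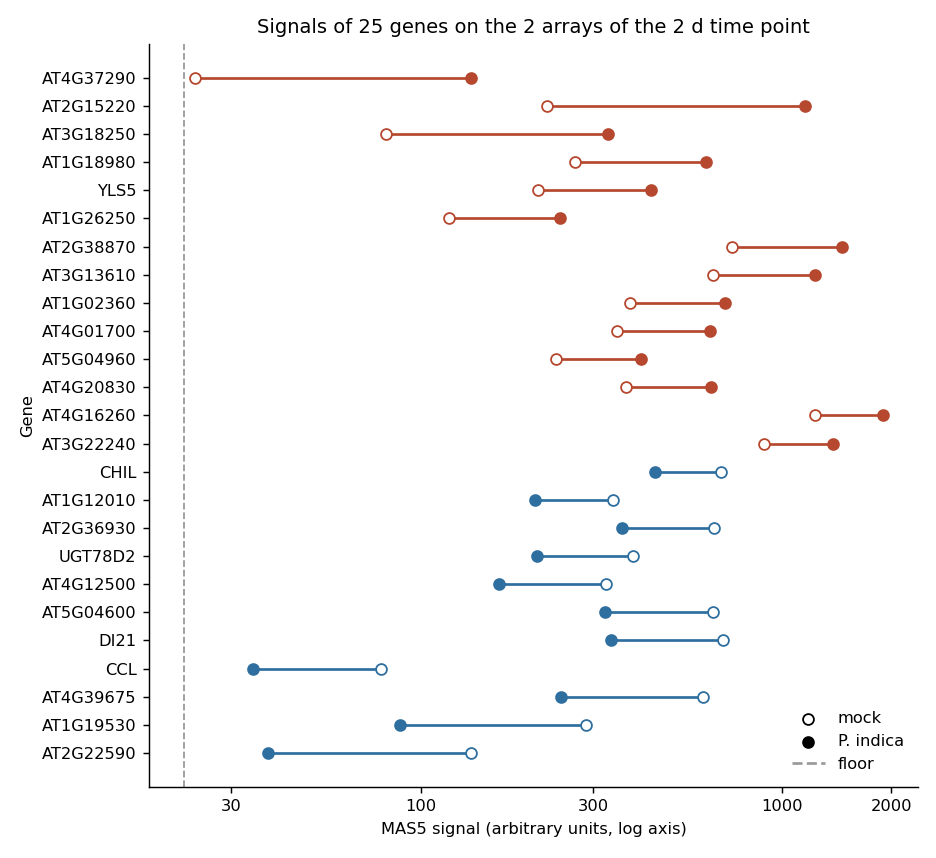
MAS5 signals (log axis) of 25 genes on the mock array (open circles) and the P. indica array (filled circles) of 2 d, 14 of them higher (red) and 11 lower (blue). The dashed line is the floor of 22.2. The brightest pair is AT4G16260 with 1233 and 1906, and all signals lie above the floor.

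A part of the higher genes lay beside each other on the chromosomes. In the order of the protein-coding genes of the TAIR10.1 annotation, the genes next to a more than 1.5-fold higher gene on either side were examined where they were counted. Of 141 such neighbours 20 (14.2%) were themselves more than 1.5-fold higher, whereas 2.74% of all named genes counted were. Next to lower genes, 2 of 108 neighbours (1.85%) were lower, against 2.38% of all named genes. Where consecutive members lay at most 5 positions apart, 31 of the 207 higher genes fell into 14 groups and 13 of the 180 lower genes into 6. Besides the 4 berberine bridge enzyme-like genes, the groups of higher genes held the 3 chitinase genes AT2G43570, AT2G43590 and AT2G43620, the extensin genes AT1G26240 and AT1G26250, the PIP precursor AT4G37290 with AT4G37295, the germin-like AT5G38910 with AT5G38900, and the acyltransferase genes AT5G07860 and AT5G07870. Many of these are copies of one another, whose transcripts are alike in sequence. None of the 31 genes was read by a probe set with a cross-hybridization suffix.

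The pair of arrays from 6 d offered a separate reading of the same probe sets. All 41 probe sets that exceeded mock by more than 3-fold at 2 d had a ratio above 1 at 6 d and 35 (85.4%) were again more than 1.5-fold higher. Of 63 probe sets between 2-fold and 3-fold higher, 55 (87.3%) lay above 1, and 32 (50.8%) were past 1.5-fold. Between 1.5-fold and 2-fold, 190 of the 272 counted at both times (69.9%) lay above 1, and 47 (17.3%) were past 1.5-fold. Over all 13538 probe sets counted at both times, 46.4% lay above 1 and 2.13% were more than 1.5-fold higher. The shares above 1 at 6 d thus increased with the size of the difference at 2 d.

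On the lower side the shares at 6 d were smaller in each size class, a contrast that was not tested. Of 285 probe sets between 1.5-fold and 2-fold lower at 2 d, 173 (60.7%) lay below 1 at 6 d, and 21 (7.37%) were past 1.5-fold. Of 30 between 2-fold and 3-fold lower, 20 (66.7%) lay below 1 and 1 (3.33%) was past 1.5-fold. Of the 8 more than 3-fold lower, 3 lay below 1 at 6 d, all of them past 1.5-fold. Over all probe sets 53.4% lay below 1 and 1.37% were more than 1.5-fold lower. The time of exposure, the labelled age of the seedlings (12 d and 16 d) and the array preparation differ between both pairs. Their parts in ratios that differ at 6 d cannot be told apart.

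**Figure D4:**
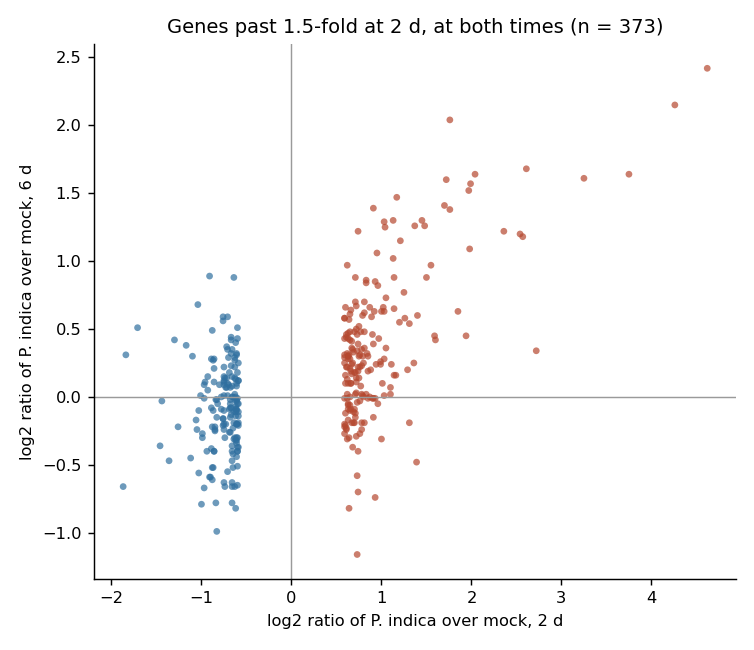
Log2 ratio of P. indica over mock at 2 d (x axis) and at 6 d (y axis) for the 373 named genes that were past 1.5-fold at 2 d and counted at 6 d. Of the 201 higher genes (red) 150 lie above 0 at 6 d, and of the 172 lower genes (blue) 103 lie below 0.

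Where the higher genes had smaller ratios at 6 d, the signal of mock-treated roots was mostly the one that differed. Among the 41 with more than 3-fold higher signals, mock was brighter at 6 d than at 2 d in 36, with a median difference of 0.89 on the log2 scale. The exposed signal was higher in 19 and lower in 22, with a median of -0.05. Over all probe sets counted, 48.5% had a higher mock signal at 6 d. The arrays of both times stand apart in the actin control. Its 3′ probe set exceeded the 5′ one by 5.10 (mock) and 4.88 (exposed) on the log2 scale at 6 d, against 3.00 and 2.71 at 2 d. By their labels the seedlings also differed in age, with 16 d against 12 d. The parts of both in differences across time were not tested. F6'H1 had signals of 742 and 1341 at 6 d, the protease inhibitor gene AT2G38870 of 889 and 1379, and AT2G15220 of 428 and 996. For the 40 probe sets more than 2-fold lower at 2 d the mock signal was lower at 6 d in 29 and the exposed signal was higher in 33. The probe sets were chosen by their 2 d signals, of which a low mock value is part, so these medians are a description and carry no test.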

How the data were processed

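The authors deposited intensities on a linear scale, made with MAS5 according to the submitters' processing notes, which give no version, for Affymetrix ATH1 arrays hybridized with RNA of roots. The study analysed them in ROBIN and MapMan after 3 independent experiments. How the arrays relate to these experiments (pooled or not) the sources used here leave unstated. In the labels root is the tissue, while the RNA protocol covers roots and shoots and a free description speaks of embryos. None of the 5 embryo marker genes looked up had a named probe set, so this description could not be checked.

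From the deposited intensities, 64 control probe sets were left out, dimmer signals were raised to the floor, and log2 ratios were formed within the time point. A probe set was counted if the brighter array lay above the floor. Its dimmest brighter signal was 22.2 and the brightest one left out was 22.1. The precision of all values is limited by the number of arrays, 1 per condition. Probe sets were named through the platform annotation, updated to TAIR10.1: 13484 have 1 gene with a locus code, 503 several, 29 a gene without locus code and 8730 none. A gene with several probe sets is represented by the brightest. Among 74 genes with several counted probe sets the median gap between their log2 ratios was 0.16, and 6 differed by more than 1.5-fold.

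The members, tests and lists were chosen with earlier results of these data known. The naming rule takes the 20 largest higher and 15 largest lower differences above the floor, the 10 largest bounds in each direction, the 8 largest in each direction in the 3 upper signal classes, the 6 largest members of each of the gene lists, and every gene the study names. In addition, 9 gene groups were made after the values had been seen (berberine bridge enzyme-like, chitinases, peroxidases, germin-like, extensins, PIP precursors, ribosome biogenesis, carbon starvation, flavonoid genes), and other genes past 1.5-fold that the text names were chosen after their values were seen. The signal classes have limits at 50, 100, 300 and 1000. A planned motif search in promoters was not run, since no promoter sequences were used here. The counting was tested on simulated arrays. Python 3.11.15, numpy 2.4.6, pandas 2.3.3 and statsmodels 0.14.6 were used.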

Additional observations from a re-analysis of the deposited data

Results flagged for a closer look

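In 9 named genes the ratio was more than 1.5-fold on one side of mock at 2 d and more than 1.5-fold on the other side at 6 d. They were 5 of the 172 lower genes counted at 6 d (2.91%), where 1.99% of all named genes counted at both times were more than 1.5-fold higher at 6 d, and 4 of the 201 higher genes (1.99%), where 1.59% of all genes were more than 1.5-fold lower, so both counts are near the background. With 1 array per condition the difference between the time points was not tested for any of them. Lower at 2 d and higher at 6 d were the Ca2+ sensor gene CML38 (AT1G76650, log2 ratio -1.04 at 2 d and 0.68 at 6 d), AT5G56100 (-0.91 and 0.89), the glycine-rich protein gene AT4G30460 (-0.76 and 0.59), the aldehyde dehydrogenase gene ALDH11A3 (AT2G24270, -0.71 and 0.59) and AT1G67050 (-0.64 and 0.88). Higher at 2 d and lower at 6 d were AT3G25950 (0.93 and -0.74), AT1G76470 (0.74 and -0.70), AT5G04120 (0.73 and -1.16) and AT1G14390 (0.64 and -0.82). Of all their signals, AT4G30460 had the highest, 199 and 118 at 2 d and 79.3 and 119.5 at 6 d. CML38, ALDH11A3, AT3G25950 and AT5G04120 had 1 signal under the floor at 2 d, so their 2 d ratios are bounds. For CML38 (21.6 and 35.5) and AT3G25950 (37.2 and 19.8) the 6 d ratios are bounds as well.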

How the results depend on the processing

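Each count was computed again under 8 alternatives, and the ratios of 600 genes with them. Quantile normalization, loess, centring on the median and leaving out probe sets with a cross-hybridization suffix kept every count within 1.5 times, and no gene ratio past 1.5-fold changed sign under any of the 8. The floor decided the counts of dim probe sets. With a floor at the 20th percentile, 1116 were higher and 993 lower at 1.5-fold, 330 and 192 at 2-fold, and 95 and 27 at 3-fold. With a floor at the 60th percentile the pairs were 189 and 131, 49 and 15, and 20 and 3. With 32 added to every signal they were 188 and 83, 58 and 12, and 21 and 1. Without a floor, 159 were higher and 63 lower at 2-fold, and 73 were higher at 3-fold. Adding 32 moved 129 of the 600 gene ratios by more than 0.32 on the log2 scale, the floor at the 60th percentile 76 of the 388 left, and the lower floor and no floor 32 each. Of 39 list medians, 3 or 4 moved by more than 0.32 under these settings. Ratios of dim probe sets are thus limited by signal over background. No paired analysis was possible because each condition has 1 array and no test was made.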
